A study of Mus musculus with 8 samples.

Results

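The 10 genes described here encode secreted Wnt signals, their receptors and antagonists, and a gene that Wnt signalling switches on: Rspo3, Wnt4, Wnt5a, Fzd1, Fzd2, Sfrp1, Sfrp2, Dkk2, Dkk3 and Axin2. They were taken by symbol from the annotation of the array, each as its single-symbol probe set with the highest mean over all arrays, and all 10 were found among the 22180 genes measured. The samples are RNA from primary hepatic stellate cells of BALB/c mice, liver pericytes that store vitamin A, hybridised to 8 Affymetrix arrays in 4 groups of 2. Cultured cells had spent 10 days on plastic after isolation from healthy livers. In vivo activated cells came from mice given carbon tetrachloride (CCl4), a hepatotoxin that causes fibrosis, for 2 weeks or for 4 weeks and were not seeded. Quiescent cells came from healthy livers at 0 hours and were not seeded either. A treatment protocol entered for all 8 samples names 2.5 mM valproic acid after seeding, which no sample title carries, so it is not settled here whether it was added to the cultures. Age, sex, CCl4 dose and pooling of animals are not given in the sources used here.

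Wnt ligands are lipid-modified proteins that bind Frizzled receptors. In the canonical branch, with the coreceptors Lrp5 and Lrp6, this stabilises beta-catenin, which activates genes through TCF/LEF factors. In the noncanonical branches, Frizzled, Ror and Ryk receptors act on the cytoskeleton and calcium without beta-catenin. R-spondins amplify the signal by removing the ubiquitin ligases Znrf3 and Rnf43 from the cell surface, while secreted Frizzled-related proteins and Dickkopf proteins dampen it. In the liver, Wnt and R-spondin signals around the central vein set the zonation of hepatocytes.

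Levels are log2 RMA values, and a difference of 1 is a factor of 2. Changes are log2 fold changes ± standard error (SE) from limma, with p-values adjusted by the Benjamini-Hochberg method over all 22180 genes, and "rose" and "fell" are used for an adjusted p under 0.05. As a guide to background, the 95th percentile of 1394 olfactory and vomeronasal receptor genes was 4.69 log2 units. Of the 10 genes, 9 had a group mean above this guide, Dkk2 in culture only, and Sfrp2 had none. The median level of 16 stellate markers ran from 6.15 to 6.65 in culture, 9.51 to 9.73 at 2 weeks, 9.56 to 9.66 at 4 weeks and 10.28 to 10.54 in quiescent cells. Lrat stood at 7.21 and 5.74 in culture, against 10.95 and 11.29 in quiescent cells, and Des at 9.96 and 9.87 against 9.67 and 9.83. Medians of 8 activated stellate markers ran from 11.30 to 11.33 in culture and from 7.33 to 7.93 in quiescent cells. After CCl4 they ran from 11.34 to 11.37 at 2 weeks and from 11.10 to 11.36 at 4 weeks. Median levels of 14 hepatocyte markers ran from 4.53 to 4.58 in culture, 8.03 to 8.998 at 2 weeks, 7.12 to 7.16 at 4 weeks and 10.27 to 11.08 in quiescent cells. Those of 14 sinusoidal endothelial markers ran from 5.16 to 5.37, 7.42 to 7.79 and 6.53 to 7.11 in the same 3 groups, and from 8.45 to 9.47 in quiescent cells. In such bulk samples, fewer cells of a type and less RNA per cell cannot be told apart.

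In culture, Dkk2, Wnt5a and Fzd2 rose and Rspo3, Fzd1, Sfrp1 and Wnt4 fell, so that 7 of the 10 genes passed the test, where 23.2% of all genes did (3 rose against 12.9% of all genes, and 4 fell against 10.3%). After 2 weeks of CCl4, Rspo3 fell and Wnt5a rose, 2 of 10 against 4.77% of all genes (1 rose against 2.34%, and 1 fell against 2.43%). After 4 weeks, Rspo3 fell and Wnt4, Wnt5a and Fzd1 rose, 4 of 10 against 8.71% (3 rose against 4.04%, and 1 fell against 4.67%). Between 4 and 2 weeks none of the 10 passed by limma, where 0.0857% of all genes did (0.0271% rose and 0.0586% fell), and 2 of them (Wnt4 and Fzd1) had an unadjusted p under 0.05. The median change of the 10 was -0.62 in culture, 0.27 at 2 weeks and 0.27 at 4 weeks, where the medians of all genes were 0.01, 0.00 and -0.00. The cultured and quiescent arrays did not overlap for any of the 10 genes, as for 58.2% of all genes. The arrays did not overlap for 7 of the 10 at 2 weeks (43.5% of all genes), for 8 at 4 weeks (48.7%) and for 6 between 4 and 2 weeks (39.0%). Against the mean of the CCl4 groups, culture was higher for 1 (12.6% of all genes) and lower for 6 (8.72%), and its arrays lay apart from the CCl4 arrays for 9 (39.9%). The 3 comparisons with quiescent cells share the same 2 quiescent arrays.

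**Figure D1:**
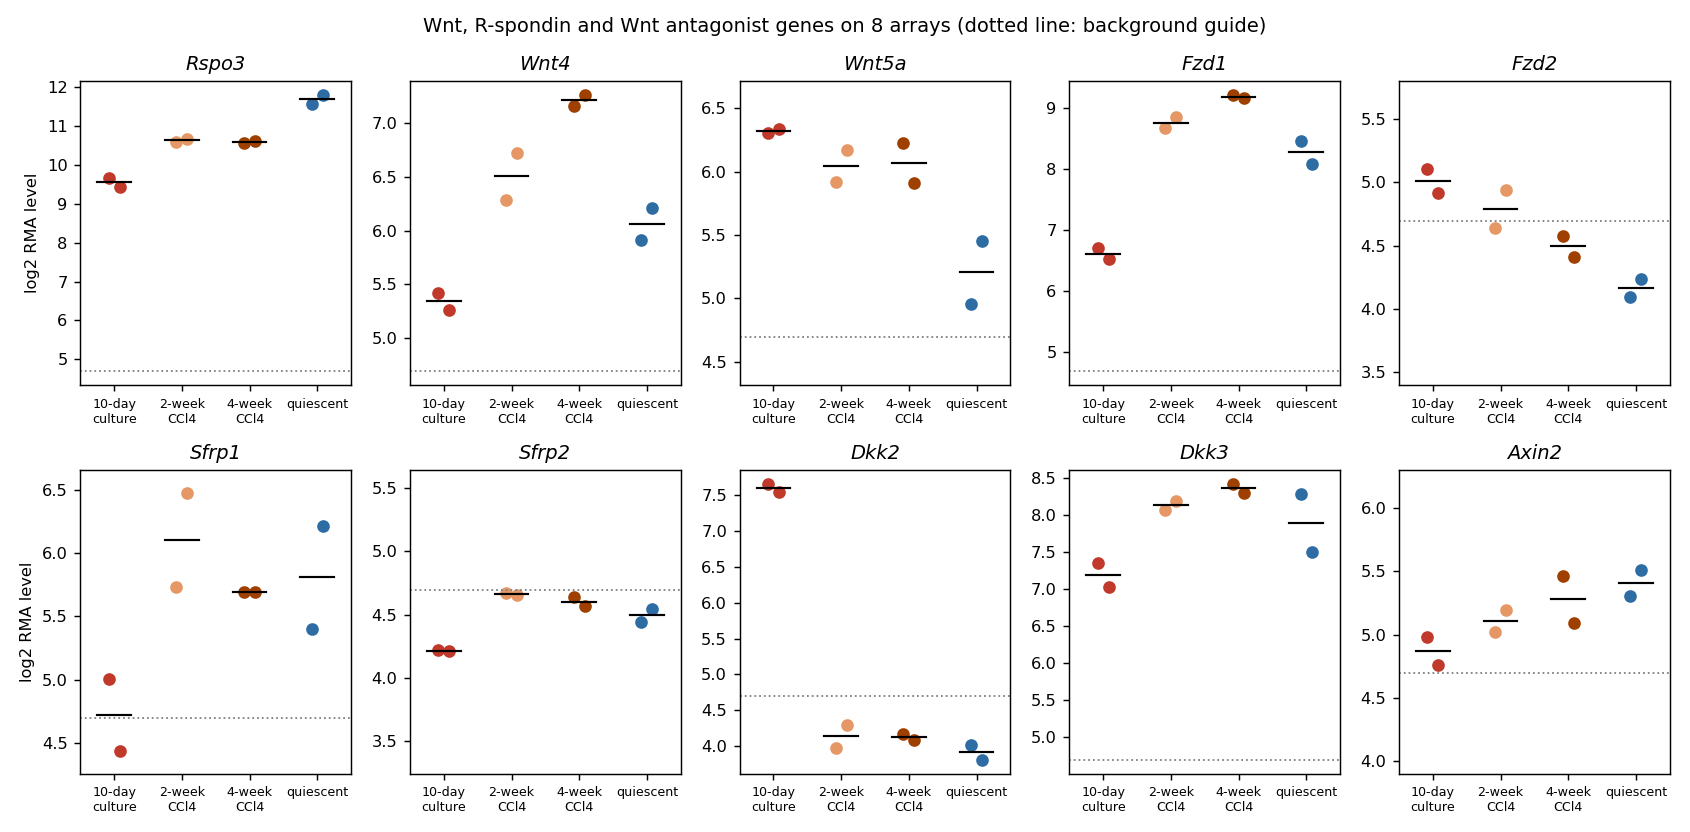
Level of each gene on the 8 arrays, in log2 RMA units. Points are single arrays, black bars are group means (n = 2), the dotted line is the background guide at 4.69, and vertical axes differ between panels. Rspo3 was lowest in culture and highest in quiescent cells, Wnt4 and Fzd1 were lowest in culture and highest at 4 weeks of CCl4, and Dkk2 stood above the guide in culture only.

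Among the ligands, Rspo3 was lower in every activated group. R-spondin 3 is a secreted amplifier of Wnt signalling that stellate cells and the endothelium of the central vein are known to make. Rspo3 measured 9.67 and 9.42 in cultured cells, 10.59 and 10.66 in 2-week CCl4 cells, 10.57 and 10.61 in 4-week CCl4 cells and 11.57 and 11.80 in quiescent cells. The CCl4 arrays of both times interleaved, and they lay between the cultured and the quiescent arrays without overlap. Rspo3 fell in culture (-2.14 ± 0.15, 4.40-fold lower, adjusted p = 1.86e-05), at 2 weeks (-1.06 ± 0.15, 2.08-fold lower, adjusted p = 0.00635) and at 4 weeks (-1.09 ± 0.15, 2.14-fold lower, adjusted p = 0.00311). Culture also stood below the mean of both CCl4 groups (-1.06 ± 0.13, adjusted p = 0.000522). Between 4 and 2 weeks the difference was -0.04, with a 95% interval of -0.38 to 0.31. The 2-week call was lost without 2-week replicate 1 (adjusted p = 0.0611).

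Markers of other cells also differed between these groups. Of 14 sinusoidal endothelial markers, 14 fell in culture, 8 at 2 weeks and 11 at 4 weeks, and their summed level on a log2 scale ran from 9.08 to 9.38, from 11.52 to 11.86 and from 10.90 to 11.24 in those groups, against 12.83 to 13.74 in quiescent cells. Of 14 hepatocyte markers, 14, 7 and 14 fell, with summed levels of 8.71 to 8.86, 13.02 to 13.66 and 11.80 to 12.12, against 14.17 to 15.00 in quiescent cells. Of 12 macrophage markers, 10 fell in culture, 1 at 2 weeks and 9 at 4 weeks, and 1 and 2 rose in culture and at 2 weeks. Between 4 and 2 weeks Rspo3 differed by -0.04. The median change was -1.39 for hepatocyte, -1.49 for macrophage, -0.61 for sinusoidal endothelial and -0.02 for stellate markers. In that comparison 4 of 12 macrophage markers fell. No hepatocyte, sinusoidal endothelial or stellate marker passed by limma, with 10, 4 and 1 at an unadjusted p under 0.05. Of 16 stellate markers, 14 fell in culture, 8 fell and 1 rose at 2 weeks, and 9 fell and 1 rose at 4 weeks. Against quiescent cells, Lrat changed by -4.64 in culture, -0.09 at 2 weeks and -0.11 at 4 weeks. Des changed by 0.17, -0.04 and 0.31 and Reln by -4.67, -0.77 and -0.79 in the same groups. Only the falls of Lrat and Reln in culture passed, and the CCl4 changes had adjusted p 0.118 to 0.952 (limma). The part of all these markers in the change of Rspo3 was not tested. Of 5 markers of central vein endothelium other than Rspo3, 1 rose and 2 fell in culture, 0 passed at 2 weeks (limma, with 1 at an unadjusted p under 0.05) and 1 fell at 4 weeks. Of these, Wnt2 stood at 4.30 and 4.17 in culture and at 4.99 and 4.595 in quiescent cells, and Wnt9b at 4.55 and 4.86 against 5.08 and 4.94, both near the guide, and Thbd at 9.52 and 9.57 against 8.20 and 6.93. Over the 4 CCl4 arrays, Wnt2 ran from 4.35 to 4.54, Wnt9b from 4.74 to 5.11 and Thbd from 7.18 to 7.47.

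**Figure D2:**
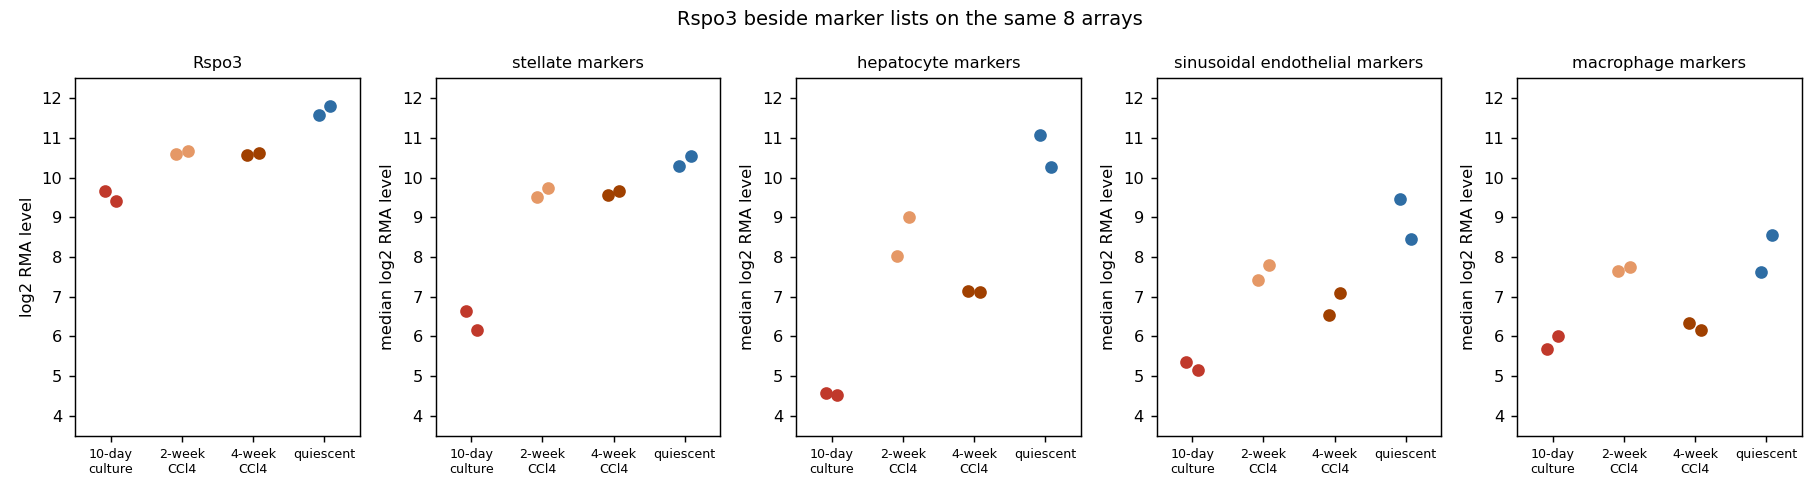
Rspo3 (left) and the median of 4 marker lists (16 stellate, 14 hepatocyte, 14 sinusoidal endothelial and 12 macrophage genes) on the same arrays, in log2 RMA units on a shared scale. Each point is 1 array. All lists were lower in culture than in quiescent cells, and the CCl4 arrays of Rspo3 kept to 10.57 to 10.66.

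The genes whose pattern over the 8 arrays came nearest to that of Rspo3 were Ntn1, Rgl1 and Dock6. After each gene was centred on its own mean, they differed from Rspo3 by a root mean square of 0.09, 0.13 and 0.15 log2 units. Ntn1, which encodes the guidance protein netrin-1, stood at 6.84 and 6.52 in culture, at 7.49 to 7.81 over the 4 CCl4 arrays and at 8.61 and 8.83 in quiescent cells.

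Wnt4, a ligand known for roles in kidney and gonad development, moved in opposite directions in culture and in the fibrotic liver. Wnt4 measured 5.42 and 5.27 in cultured cells, 6.28 and 6.72 in 2-week CCl4 cells, 7.16 and 7.26 in 4-week CCl4 cells and 5.92 and 6.21 in quiescent cells. No group overlapped another. Wnt4 fell in culture (-0.72 ± 0.18, 1.65-fold lower, adjusted p = 0.0202) and rose at 4 weeks (1.15 ± 0.18, 2.22-fold higher, adjusted p = 0.00616). The 2-week change of 0.44 ± 0.18 did not pass (adjusted p = 0.263). The difference between culture and the mean of the CCl4 groups was -1.51 ± 0.16 (2.85-fold, adjusted p = 0.000202), where 21.3% of all genes passed. Between 4 and 2 weeks it was 0.71 ± 0.18 (adjusted p = 0.265). The culture call was lost without quiescent replicate 2, culture replicate 1 or culture replicate 2 (adjusted p 0.0564 to 0.12) and when adjusted over all probe sets (0.0545), and the 4-week call without 4-week replicate 2 (adjusted p = 0.0582).

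Wnt5a, the best-known noncanonical ligand, which acts through Ror2 and Frizzled receptors, was higher in all 3 activated groups. Wnt5a measured 6.31 and 6.34 in cultured cells, 5.92 and 6.17 in 2-week CCl4 cells, 6.23 and 5.91 in 4-week CCl4 cells and 4.96 and 5.45 in quiescent cells. The quiescent arrays lay below the other 6, whose CCl4 groups overlapped each other. Wnt5a rose in culture (1.12 ± 0.20, 2.17-fold, adjusted p = 0.00333), at 2 weeks (0.84 ± 0.20, 1.79-fold, adjusted p = 0.0493) and at 4 weeks (0.86 ± 0.20, 1.82-fold, adjusted p = 0.0296). Culture and CCl4 differed by 0.27, with a 95% interval of -0.12 to 0.66. The culture call was kept in 8 of the 8 fits that left out 1 array. The 2-week call held only without quiescent replicate 2 and was lost in the other 7 fits (adjusted p 0.0756 to 0.201), and 6 of 9 other settings also ended it (0.0533 to 0.141). The 4-week call was lost without quiescent replicate 1, either cultured array or either 4-week array, with changes of 0.62 to 1.11 over the 8 fits. The cultured arrays enter that comparison only through the shared spread. It was also lost in 2 of the 9 other settings (adjusted p 0.0847 and 0.0874).

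Among the receptors, Fzd1 followed the order of Wnt4, lowest in culture and highest at 4 weeks of CCl4. Frizzled receptors are 7-pass membrane proteins whose cysteine-rich outer domain holds the Wnt ligand, and Fzd1 can signal in the canonical branch. Fzd1 measured 6.71 and 6.52 in cultured cells, 8.67 and 8.85 in 2-week CCl4 cells, 9.22 and 9.16 in 4-week CCl4 cells and 8.46 and 8.09 in quiescent cells, with no overlap between groups. It fell in culture (-1.66 ± 0.17, 3.15-fold lower, adjusted p = 0.000145) and rose at 4 weeks (0.91 ± 0.17, 1.88-fold higher, adjusted p = 0.0115). The 2-week change of 0.49 ± 0.17 did not pass (adjusted p = 0.166). The difference between culture and CCl4 was -2.36 ± 0.14 (5.12-fold, adjusted p = 8.87e-06). The 4-week call was lost without either 4-week array (adjusted p 0.0713 and 0.0932). Of 12 portal fibroblast and mesothelial markers, 6 fell and 1 rose in culture, 5 rose at 2 weeks, and 4 rose and 1 fell at 4 weeks. Their summed level on a log2 scale ran from 10.46 to 10.67 in culture, 12.27 to 12.46 at 2 weeks and 12.20 to 12.31 at 4 weeks, against 10.94 to 11.29 in quiescent cells, and their part in the changes of Wnt4 and Fzd1 was not tested. The genes nearest to Fzd1 in pattern were Slc15a3, Bicc1 and Zbp1, at root mean square differences of 0.21, 0.22 and 0.22 log2 units.

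Fzd2, a close paralogue that can bind Wnt5a, was highest in culture. Fzd2 measured 5.11 and 4.91 in cultured cells, 4.64 and 4.94 in 2-week CCl4 cells, 4.58 and 4.41 in 4-week CCl4 cells and 4.09 and 4.24 in quiescent cells. Only 3 of the 8 arrays were above the guide, so its changes start from levels near background. Fzd2 rose in culture (0.85 ± 0.16, 1.80-fold, adjusted p = 0.00486). The CCl4 changes of 0.62 ± 0.16 after 2 weeks (adjusted p = 0.0668) and 0.33 ± 0.16 after 4 weeks (adjusted p = 0.303) did not pass. The cultured arrays overlapped the 2-week arrays.

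**Figure D3:**
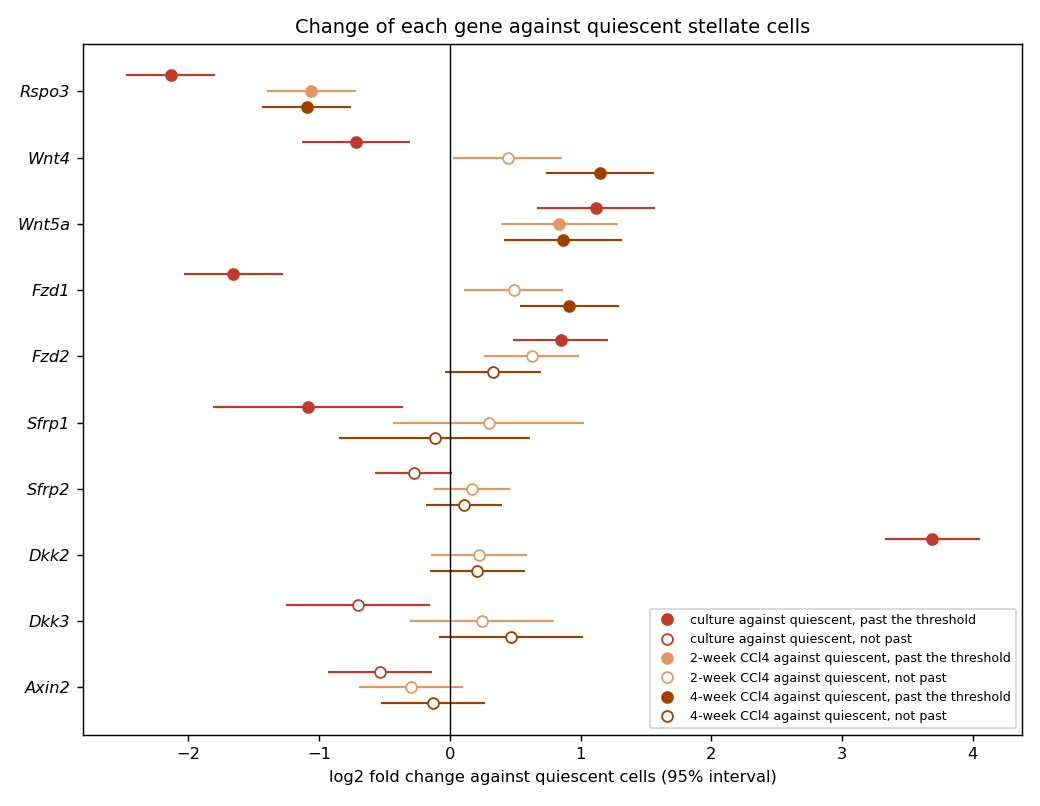
Log2 fold change of each gene against quiescent cells in culture and at 2 and 4 weeks of CCl4, with 95% intervals from limma. Filled points passed an adjusted p of 0.05. Wnt4 and Fzd1 lie left of 0 in culture and right of 0 after CCl4, while Dkk2 stands at 3.69 in culture and near 0.2 after CCl4.

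Among the 4 antagonists of the 10 genes, Dkk2 had the largest change against quiescent cells, in culture. Dickkopf proteins bind Lrp5 and Lrp6, and Dkk2 can inhibit or weakly activate Wnt signalling depending on the coreceptor Kremen. Dkk2 measured 7.66 and 7.54 in cultured cells, 3.97 and 4.30 in 2-week CCl4 cells, 4.17 and 4.08 in 4-week CCl4 cells and 4.02 and 3.81 in quiescent cells. All 6 arrays of unseeded cells were below the guide, so the sizes of its changes are set against background and are not exact folds. Dkk2 rose in culture (3.69 ± 0.16, 12.9-fold, adjusted p = 1.59e-06), and the difference from the mean of the CCl4 groups was 3.47 ± 0.14 (adjusted p = 9.09e-07). At 2 and 4 weeks it stood at 0.22 (95% interval -0.14 to 0.59) and 0.21 (-0.15 to 0.57). The culture call was kept in 8 of the 8 fits that left out 1 array. Of 9 smooth muscle markers, 5 rose in culture, 5 at 2 weeks and 7 at 4 weeks, with summed log2 levels of 13.95 to 14.05, 12.54 to 12.61 and 12.59 to 12.95 in those groups, against 10.73 to 11.06 in quiescent cells. This list shares Acta2 with the activated stellate markers and Des with the stellate markers. The part of the smooth muscle markers in the change of Dkk2 was not tested. The genes nearest in pattern were Cabcoco1, Acta1, the skeletal muscle actin gene, and Eda2r, at root mean square differences of 0.21, 0.26 and 0.26 log2 units.

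Promoter sequences, credited to RefSeq on build GRCm38.p6, were matched for 5 of the 10 genes: Wnt4, Sfrp2, Dkk2, Fzd1 and Axin2. The 250 bases before the annotated start are shown 5′ to 3′ for the 3 of these that differed most between culture and CCl4. Dkk2 lies at chr3:132085042-132085291 on the plus strand, Fzd1 at chr5:4758217-4758466 on the minus strand and Wnt4 at chr4:137277385-137277634 on the plus strand.
Dkk2: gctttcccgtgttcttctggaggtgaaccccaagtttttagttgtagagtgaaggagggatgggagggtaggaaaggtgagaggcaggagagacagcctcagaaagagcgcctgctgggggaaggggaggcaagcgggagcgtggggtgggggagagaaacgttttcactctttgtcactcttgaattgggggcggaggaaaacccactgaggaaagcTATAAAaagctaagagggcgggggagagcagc
Fzd1: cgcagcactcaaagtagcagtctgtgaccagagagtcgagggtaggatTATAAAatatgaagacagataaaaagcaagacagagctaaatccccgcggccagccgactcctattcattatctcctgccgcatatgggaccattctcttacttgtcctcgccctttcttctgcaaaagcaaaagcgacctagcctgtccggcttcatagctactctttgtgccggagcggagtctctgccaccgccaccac
Wnt4: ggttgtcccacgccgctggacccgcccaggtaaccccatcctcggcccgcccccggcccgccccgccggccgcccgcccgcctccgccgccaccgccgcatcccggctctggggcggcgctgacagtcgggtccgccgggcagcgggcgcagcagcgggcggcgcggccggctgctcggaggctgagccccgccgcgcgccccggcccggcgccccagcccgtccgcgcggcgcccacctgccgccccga
Capitals mark a TATA match (TATAAA, either strand), which begins 32 bases before the start in Dkk2 and 202 bases before it in Fzd1. That motif was chosen after the sequences were seen, and 12.4% of 32851 promoters held it in the same window. The TCF/LEF motif CTTTGAT and the TEAD motif GGAATG, searched on both strands, had no match in the 5 promoters, while 3.21% and 12.6% of all promoters held them. The GC share was 55.6% in Dkk2, 51.2% in Fzd1 and 85.2% in Wnt4.

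Sfrp1, a decoy that binds Wnt ligands through a Frizzled-like domain, was lower in culture. Sfrp1 measured 5.01 and 4.44 in cultured cells, 5.73 and 6.48 in 2-week CCl4 cells, 5.69 and 5.69 in 4-week CCl4 cells and 5.40 and 6.21 in quiescent cells. The cultured arrays lay below all others, while the quiescent and CCl4 arrays overlapped. Culture replicate 2 was below the guide and the culture mean of 4.72 was near it, so the size of the fall is not an exact fold. Sfrp1 fell in culture (-1.09 ± 0.32, 2.12-fold lower, adjusted p = 0.0391) and stood below the mean of the CCl4 groups (-1.18 ± 0.28, adjusted p = 0.0158). The intervals at 2 weeks (-0.43 to 1.03) and 4 weeks (-0.85 to 0.61) were wide. The culture call was lost without quiescent replicate 2, culture replicate 2 or either 4-week array (adjusted p 0.0682 to 0.235), and when adjusted over all probe sets, after renewed quantile normalization or with only the 2 groups compared (0.0522 to 0.103). The call against CCl4 was lost without culture replicate 2 (adjusted p = 0.16) and when adjusted over all probe sets (0.0524).

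Dkk3, a divergent Dickkopf protein that does not inhibit Wnt signalling as its relatives do, was lower in culture than after CCl4. Dkk3 measured 7.35 and 7.02 in cultured cells, 8.07 and 8.19 in 2-week CCl4 cells, 8.42 and 8.29 in 4-week CCl4 cells and 8.28 and 7.49 in quiescent cells. The quiescent pair lay far apart, with 1 array inside the CCl4 range and the other below it, and both were above the cultured arrays. Against the mean of the CCl4 groups Dkk3 was lower in culture (-1.06 ± 0.21, 2.08-fold, adjusted p = 0.00672), a call lost without culture replicate 2 (adjusted p = 0.0797). Against quiescent cells it stood at -0.70 ± 0.24 in culture (adjusted p = 0.0717), 0.24 ± 0.24 at 2 weeks (adjusted p = 0.718) and 0.47 ± 0.24 at 4 weeks (adjusted p = 0.335). Without quiescent replicate 2 Dkk3 fell in culture (adjusted p = 0.00403), and without quiescent replicate 1 it rose at 4 weeks (adjusted p = 0.0364).

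Sfrp2, a relative of Sfrp1, stood below the guide on all 8 arrays, at 4.22 and 4.22 in culture, 4.67 and 4.66 at 2 weeks, 4.64 and 4.57 at 4 weeks, and 4.44 and 4.55 in quiescent cells. Set against quiescent cells, no activated group passed (culture, 2 weeks and 4 weeks: adjusted p 0.173, 0.595 and 0.746). Against the mean of the CCl4 groups it was lower in culture by a small amount (-0.42 ± 0.11, adjusted p = 0.0274), a call lost without any single cultured or CCl4 array (adjusted p 0.0544 to 0.137), with the mean of probe sets (0.183), when adjusted over all probe sets (0.0508) and after centring on array medians (0.0592). A dimmer Sfrp2 probe set stood at -0.12 in that comparison.

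Axin2, a scaffold of the beta-catenin destruction complex that canonical signalling itself induces and that serves as a readout of it, passed in none of the 5 comparisons by limma, and had an unadjusted p under 0.05 in 1 of them, culture against quiescent cells. Axin2 measured 4.98 and 4.76 in cultured cells, 5.02 and 5.20 in 2-week CCl4 cells, 5.46 and 5.09 in 4-week CCl4 cells and 5.30 and 5.51 in quiescent cells. The cultured arrays lay below all others, and the 2- and 4-week arrays overlapped. Its changes against quiescent cells were -0.53 ± 0.17 in culture (95% interval -0.93 to -0.14, adjusted p = 0.0579, and 0.0465 with dim genes left out), -0.30 ± 0.17 at 2 weeks (adjusted p = 0.462) and -0.13 ± 0.17 at 4 weeks (adjusted p = 0.787). The probe sets of Axin2 disagreed: the dimmer of the pair stood at 0.05 in culture, 0.12 at 2 weeks and 0.34 at 4 weeks.

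Beside these 10 genes, 112 other genes of the pathway were measured, of which 15 rose and 21 fell in culture, 9 rose and 1 fell at 2 weeks, and 8 rose and 5 fell at 4 weeks. In either direction these are 32.1%, 8.93% and 11.6% of the 112, against 23.2%, 4.77% and 8.71% of all genes. By direction, 12.9% of all genes rose and 10.3% fell in culture, 2.34% and 2.43% at 2 weeks, and 4.04% and 4.67% at 4 weeks. Their median changes were -0.09, 0.03 and -0.00. Of 23 other ligand and secretion genes, 1 rose and 2 fell in culture and none passed at either CCl4 time by limma, with 0 and 4 at an unadjusted p under 0.05. The rise was Wls (0.94 ± 0.17, adjusted p = 0.00342), which carries Wnt proteins to the surface. The falls were Porcn (-0.73 ± 0.16, adjusted p = 0.0112), which attaches their lipid, and Wnt2 (-0.56 ± 0.16, adjusted p = 0.0345). Porcn lost its call without quiescent replicate 2 or culture replicate 1 (adjusted p 0.0589 and 0.07), and Wnt2 lost it in 7 of the 8 fits with a single array removed (adjusted p 0.0514 to 0.191).

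Of 22 other receptor genes, 7 rose and 6 fell in culture, 4 rose at 2 weeks, and 3 rose and 3 fell at 4 weeks. These are 59.1%, 18.2% and 27.3% of the receptors, where 23.2%, 4.77% and 8.71% of all genes passed. Ror1, a noncanonical Wnt receptor, measured 6.01 and 6.29 in cultured cells, 6.94 and 7.24 in 2-week CCl4 cells, 7.84 and 7.99 in 4-week CCl4 cells and 5.88 and 5.56 in quiescent cells. It rose at 2 weeks (1.37 ± 0.18, adjusted p = 0.0047) and 4 weeks (2.19 ± 0.18, adjusted p = 0.000288) and was lower in culture than after CCl4 (-1.35 ± 0.15, adjusted p = 0.000345). Gpc3, a glypican, rose at both times (1.97 ± 0.22 and 1.87 ± 0.22, adjusted p 0.00201 and 0.0014) and fell in culture (-0.72 ± 0.22, adjusted p = 0.0406), a fall lost in 5 of the 8 fits with a single array removed (adjusted p 0.0695 to 0.203). Gpc3 stood at 4.48 and 4.36 in culture, below the guide, and at 4.88 and 5.40 in quiescent cells. In culture the largest receptor changes were Fzd6 (1.25 ± 0.24) and Fzd7 (0.91 ± 0.23) upward and Lrp5 (-1.54 ± 0.17) and Fzd4 (-1.09 ± 0.26) downward. At 4 weeks Fzd4 (-1.49 ± 0.26) and Fzd8 (-0.75 ± 0.18) fell. Fzd8 also fell in culture (-0.71 ± 0.18, adjusted p = 0.0179), a call that some fits with 1 array left out did not keep. Its 2-week change of -0.65 ± 0.18 did not pass (adjusted p = 0.0802). With 1 array left out, Fzd7 in culture lost its call in 3 of the 8 fits (adjusted p 0.065 to 0.0951), Fzd4 in culture in 2 (0.0795 and 0.116), Fzd4 at 4 weeks without 4-week replicate 2 (0.0879) and Fzd8 at 4 weeks in 7 (0.0518 to 0.198).

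Of 16 other antagonists, 1 rose and 1 fell in culture, 1 rose at 2 weeks and 1 rose at 4 weeks. Among all genes, 23.2%, 4.77% and 8.71% passed in the same comparisons. Frzb, a secreted Frizzled-related protein, rose in culture (0.92 ± 0.20, adjusted p = 0.0103) and also after 4 weeks of CCl4 (1.28 ± 0.20, adjusted p = 0.00611). Igfbp4, an IGF-binding protein that also binds Wnt coreceptors, stood at 5.69 and 5.41 in culture and at 8.89 and 9.11 in quiescent cells, a fall of -3.45 ± 0.21 (adjusted p = 8.19e-06). Trabd2b, which encodes a protease that inactivates Wnt ligands, rose at 2 weeks (1.13 ± 0.20, adjusted p = 0.0153). Frzb lost its culture call without quiescent replicate 1 or culture replicate 1 (adjusted p 0.0586 and 0.0763) and its 4-week call without 4-week replicate 2 (0.0591). Trabd2b lost its call without quiescent replicate 1 or either 2-week array (0.0533 to 0.093).

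Inside the cell, 2 of 24 other genes rose and 6 fell in culture, where 12.9% of all genes rose and 10.3% fell. The transcription factor genes Tcf7l1 (-1.46 ± 0.16, adjusted p = 0.000261) and Tcf7l2 (-1.23 ± 0.19, adjusted p = 0.00178) fell, and Ctnnbip1 (1.04 ± 0.18, adjusted p = 0.00262), an inhibitor of beta-catenin, and Dvl3 (0.67 ± 0.14, adjusted p = 0.00852), which relays the Frizzled signal, rose. At 2 weeks Ctnnbip1 rose (0.79 ± 0.18, adjusted p = 0.0403) and at 4 weeks Tcf7l2 fell (-0.84 ± 0.19, adjusted p = 0.0302), calls lost in 7 and 5 of the 8 fits with a single array removed (adjusted p 0.0713 to 0.173 and 0.0525 to 0.203). Dvl3 lost its call without quiescent replicate 1 (0.0514). A dimmer Ctnnbip1 probe set stood at 0.11 in culture. Of 16 noncanonical genes, 1 rose and 3 fell in culture, 1 rose at 2 weeks and 1 rose at 4 weeks. The shares of all genes that passed there were 23.2%, 4.77% and 8.71%. Camk2d, a calcium-dependent kinase, rose in culture (1.60 ± 0.13), at 2 weeks (0.90 ± 0.13) and at 4 weeks (0.77 ± 0.13), while Daam2 (-2.16 ± 0.20), a formin that binds Dishevelled, and Nfatc1 (-1.43 ± 0.18) fell in culture. Camk2d lost its call without 2-week replicate 1 at 2 weeks (0.0589) and without either 4-week array at 4 weeks (0.0537 and 0.0719).

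Of 18 other genes known as Wnt targets in some tissues, 4 rose and 3 fell in culture, 2 rose and 1 fell at 2 weeks, and 3 rose and 1 fell at 4 weeks. These are 38.9%, 16.7% and 22.2% of the targets, where 23.2%, 4.77% and 8.71% of all genes passed. The lists overlap, so their counts are not separate. The rise of Znrf3 in culture counts among both the receptors and the targets, and Notum is in both the antagonists and the targets. The feedback inhibitor Nkd1 stood at 5.62 and 5.28 in culture and at 7.69 and 7.97 in quiescent cells, a fall of -2.39 ± 0.21 (adjusted p = 6.84e-05). Its paralogue Nkd2 rose at 2 weeks (1.24 ± 0.17, adjusted p = 0.00501) and 4 weeks (1.86 ± 0.17, adjusted p = 0.00043), and was lower in culture than after CCl4 (-1.24 ± 0.14, adjusted p = 0.000365). The cyclin gene Ccnd1 rose in culture (1.25 ± 0.24, adjusted p = 0.0052) and fell at 2 weeks (-1.14 ± 0.24, adjusted p = 0.0317). The adhesion receptor gene Cd44 rose in all 3 groups (2.34 ± 0.18, 1.68 ± 0.18 and 1.51 ± 0.18), and Bambi, a TGF-beta pseudoreceptor, fell in culture (-2.26 ± 0.17) and at 4 weeks (-0.77 ± 0.17). With 1 array left out, Nkd2 at 2 weeks lost its call without 2-week replicate 1 (adjusted p = 0.0537), Ccnd1 at 2 weeks in 6 of the 8 fits (0.0576 to 0.176) and Bambi at 4 weeks in 4 (0.053 to 0.187).

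**Figure D4:**
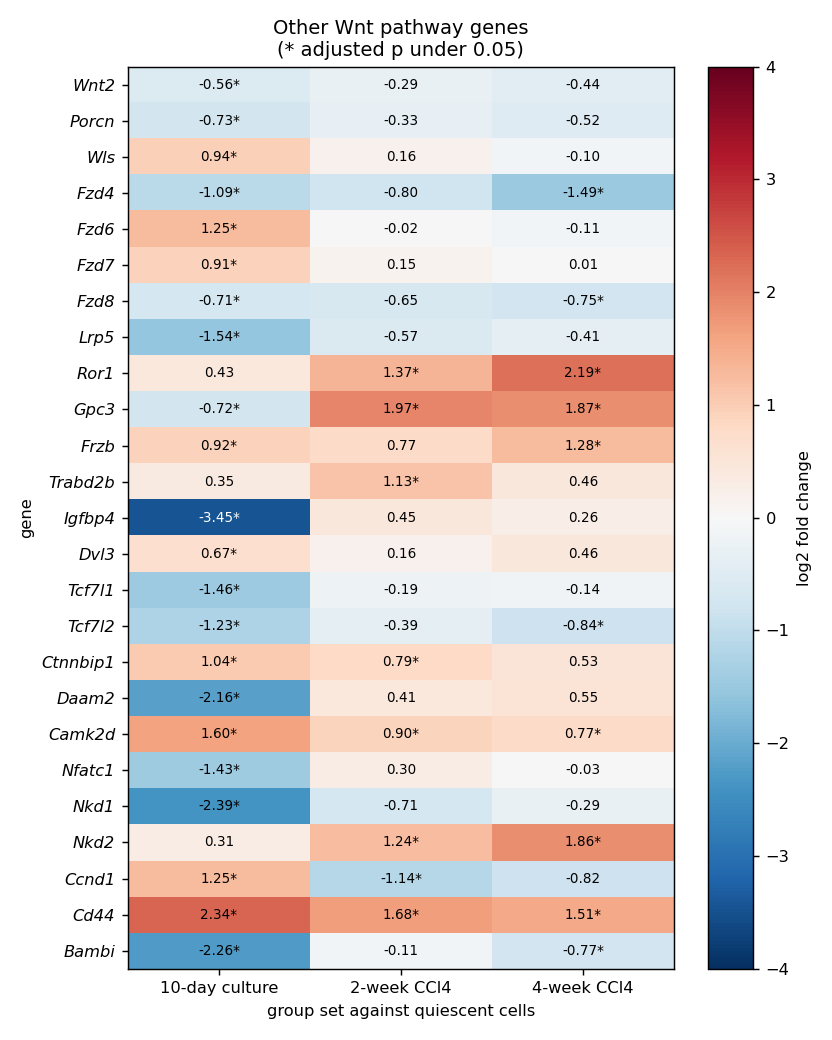
Log2 fold change against quiescent cells of the 25 other Wnt pathway genes named by the rule, with the groups in columns and the value printed in each cell. Red is higher and blue lower than in quiescent cells, and a star marks an adjusted p under 0.05. Igfbp4, Nkd1 and Bambi carry the lowest values in culture, and Ror1, Gpc3 and Nkd2 are higher after CCl4.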

How the data were processed

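The files hold log2 levels that the authors summarised by RMA. Affymetrix Expression Console is named in the submitters' processing notes without a version. RMA treats all arrays jointly, so a value depends on the whole set. Array medians ran from 4.63 to 4.72 log2 units over 41345 probe sets, and the number of arrays limits the precision. Per the labels' protocols, RNA went through preamplification (Pico Ovation WTA V2). GEO's platform annotation named 1 gene for 23521 probe sets, more than 1 for 1814 and, here, no gene for 16010. Symbols were checked by gene ID against RefSeq GRCm38.p6, where 193 IDs had no row and 0 symbols changed.

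Differences were tested two-sided with limma 3.58.1 in R 4.3.3 (lmFit and eBayes, neither trend nor robust) in a single fit of 8 arrays and 4 groups, with 4 residual and 4.75 prior degrees of freedom and no filter on low values, and tested on simulated data. With 2 arrays a group, exact permutation could reach p = 0.333 at the lowest and was not used. Nothing in the labels ties replicate arrays to different animals or cultures. The p-values thus reflect the spread of these arrays alone, and that spread may be technical. The members and lists were chosen with earlier results of these data known. Named beside the 10 members were, in each list and each comparison with quiescent cells, the top 2 genes that rose and the top 2 that fell, by size, and, for members whose group means spanned over 2 log2 units, the 3 genes nearest in pattern. Same-numbered arrays did not deviate together (correlations across genes from -0.04 to 0.07), so the numbers were not used as pairs. Alternatives were trend and robust options, a filter on dim genes, the mean of probe sets and a fit with adjustment over all probe sets. Others were 2 scalings, only the groups compared, a replicate block and leaving out each array. Leaving out an array leaves a single one in its group, so a lost call can come from fewer arrays alone. An array outside the groups compared alters only the shared spread and its degrees of freedom, not the size of a difference.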

Additional observations from a re-analysis of the deposited data

Results flagged for a closer look

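The effect of activation differed between culture and the fibrotic liver, by limma's test of culture against the mean of both CCl4 groups, for 7 of the 10 genes, where 21.3% of all genes passed. The difference was 3.47 for Dkk2, and -2.36 for Fzd1, -1.51 for Wnt4, -1.18 for Sfrp1, -1.06 for Rspo3, -1.06 for Dkk3 and -0.42 for Sfrp2 on the log2 scale. Sfrp2 stood below the background guide on all 8 arrays and lost this call in 6 of the 8 fits without 1 array, and the other side of the Dkk2 difference was below the guide too. Without culture replicate 2, 4 of the 10 genes passed. Against quiescent cells, Fzd1 and Wnt4 fell in culture and rose at 4 weeks of CCl4, where the culture call of Wnt4 was lost in 3 of those 8 fits and each 4-week call in 1 or 2. Marker lists also differed between culture and CCl4: 13 of 16 stellate, 11 of 14 hepatocyte, 13 of 14 sinusoidal endothelial and 5 of 12 macrophage markers were lower in culture, as were 5 of 12 portal fibroblast and mesothelial markers with 1 higher, and of 9 smooth muscle markers 5 were higher and 3 lower. Valproic acid in culture is not settled. Their part was not tested. The groups of 2 arrays are too small for a test of single outlying arrays.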

How the results depend on the processing

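Over 5 comparisons of the 10 genes, 425 of 445 values under the 9 alternatives that kept all arrays, and 356 of 400 with 1 array left out, kept their direction and their side of the threshold. The 2-week count of genes called among the 10 was 2, and was 1 with the trend option, adjustment over all probe sets, centring on array medians, renewed quantile normalization, only the groups compared, or the replicate block. With 1 array left out, the counts among the 10 ran from 5 to 7 in culture, 0 to 2 at 2 weeks, 1 to 4 at 4 weeks, 0 to 0 between 4 and 2 weeks, and 4 to 7 for culture against CCl4. Over all genes they ran from 3505 to 4962, 260 to 1430, 652 to 2113, 0 to 85, and 2846 to 5225. All genes called at 2 weeks numbered 1058, 441 when adjusted over all probe sets and 372 with only the groups compared. At 4 weeks they numbered 1932, and 1205 with only the groups compared. Between 4 and 2 weeks there were 19, then 0 when adjusted over all probe sets, 30 after renewed quantile normalization, 82 with only the groups compared and 9 with the replicate block. The cause was not tested.

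With the mean of probe sets, Sfrp2 at 4 weeks turned to -0.037 and Axin2 at 4 weeks to 0.11. Directions that turned with 1 array left out belonged to values that were not past the threshold. Against quiescent cells, Sfrp1 ran from -0.11 to 0.70 at 2 weeks and -0.52 to 0.29 at 4 weeks, Dkk3 from -0.15 to 0.64 at 2 weeks and Axin2 from -0.31 to 0.057 at 4 weeks. Between 4 and 2 weeks, Rspo3 ran from -0.073 to 0.0012, Wnt5a from -0.13 to 0.19, Dkk2 from -0.18 to 0.15 and Axin2 from -0.016 to 0.35. The replicate block removed the 2-week call of Wnt5a and changed no other call among the 10. Among the other named genes it removed the 2-week call of Ctnnbip1. Fzd2, Dkk2 outside culture, Sfrp1 and Axin2 in culture, and Sfrp2 lay near or below the background guide, which limits what their values show.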
